A study of Mus musculus with 374 samples.

Results

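The integrin chains described here were the 10 genes Itgam, Itgb2, Itgal, Itga4, Itgb1, Itgb7, Itgae, Itga6, Itga2b and Itgb3, which were taken by name from the 19829 mouse genes of the count table. All 10 were found. An integrin is a receptor made of an alpha and a beta chain that binds matrix proteins or molecules on other cells. The beta chain Itgb2 pairs with Itgam to form Mac-1 and with Itgal to form LFA-1, both used by leukocytes to attach to vessel walls and to other cells. Itga4 pairs with Itgb1 to form VLA-4, which holds blood progenitors in the marrow, or with Itgb7 to form a gut-homing receptor. Itgb7 with Itgae binds E-cadherin on epithelium, Itga6 with Itgb1 binds laminin, and Itga2b with Itgb3 is the fibrinogen receptor of platelets.

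Single cells were index sorted from 1 female C57BL/6 mouse of 10 to 13 weeks into 1 plate and profiled by CEL-seq2, which counts the 3′ ends of polyadenylated transcripts with unique molecular identifiers (UMIs). The bone marrow gave 44 B lymphocytes (B220+, FSC-A low), 96 granulocytes (Mac1+ Gr1+), 96 erythroblasts (Ter119+ CD44+, FSC-A mid/high) and 95 progenitor/stem cells (Lin- Kit+ Sca1+, LSK). The thymus of that animal gave 43 T lymphocytes (CD3+, FSC-A low), so that tissue and cell type cannot be told apart for the T cells. Each population is 1 sample, as its cells share a mouse and a plate and are not replicates, and no p-value was computed. Levels are CPM, the UMIs of a gene scaled by all UMIs on mouse genes in the summed wells, with 95% exact Poisson intervals in brackets. Ratios carry 95% exact conditional binomial intervals, and all intervals cover counting error only.

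The summed UMIs on mouse genes ran from 135808 in B lymphocytes to 834812 in LSK cells, and the median well from 3028.5 UMIs in B lymphocytes to 7959 in LSK cells. The marker list of each population was highest in that population. Each population filled plate rows of its own, so that population and plate row cannot be told apart. B lymphocyte well A8 had a Mac-1 fluorescence of 1268 and a Gr1 fluorescence of 15209, and B lymphocyte well B2 a CD3 fluorescence of 7905. Both go against their label, and B lymphocyte values that rest on them are given with and without them. In the Mac1+ Gr1+ gate, 13 wells held 11 to 93 UMIs on Ccr2, F13a1, Ms4a6c and Csf1r, genes of monocytes, against 0 to 3 in the other 83. These wells had low Gr1 fluorescence, and granulocyte levels of the members that they move are given with and without them. The split of the granulocytes by Gr1 is given with them only.

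The annotated starts of Itgam and Itga2b are shown because, of the members, these had the highest ratio to the mean of the other 4 populations in granulocytes and in LSK cells, respectively. Promoters of 5 of the 10 members were matched by symbol in the RefSeq table (GRCm38.p6), and the 250 bases before the start are printed 5′ to 3′ on the gene's strand. Capitals mark GAGGAA or its reverse complement TTCCTC, a core often bound by PU.1, the factor that many myeloid genes need.
Itgam (chr7:128062390-128062639, plus strand): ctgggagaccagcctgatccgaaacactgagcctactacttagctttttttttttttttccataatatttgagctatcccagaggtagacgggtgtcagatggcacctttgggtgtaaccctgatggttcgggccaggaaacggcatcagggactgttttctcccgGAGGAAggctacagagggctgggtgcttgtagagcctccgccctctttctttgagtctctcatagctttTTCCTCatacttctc
Itga2b (chr11:102469884-102470133, minus strand): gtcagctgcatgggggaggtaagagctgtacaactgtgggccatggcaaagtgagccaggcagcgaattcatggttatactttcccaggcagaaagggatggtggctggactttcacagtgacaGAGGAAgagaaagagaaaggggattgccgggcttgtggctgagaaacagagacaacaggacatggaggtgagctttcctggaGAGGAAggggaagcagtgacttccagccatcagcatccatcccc
The Itgam window held the letters on the plus strand 84 bases and on the minus strand 15 bases before the start. The Itga2b window held them 126 and 44 bases before it, both on the strand of the gene. The RefSeq start of Itga2b (102469883) lies 239 bases inside the outermost start in GENCODE M21 (102470122), so that 239 of these 250 bases are within the gene there. For Itgam the starts are the same. On either strand GAGGAA occurred in 23.3% of the 32851 windows of this length. Neither window held AGATAA, the core of GATA factors, or TGTGGT, the core of RUNX factors, on either strand, and these were in 9.99% and 14.0% of all windows. No match overlapped another. Positions are those of the first base of a match. A match is a description of letters, and binding was not measured.

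Of the 8 members with at least 50 UMIs over the 5 populations, granulocytes were at least 2-fold above the mean of the other 4 populations for 2, Itgam and Itgb2, as were 10.8% of all 6317 genes counted. They were at least 2-fold below it for 3, Itga4, Itga6 and Itga2b, where the background was 43.7%. T lymphocytes were above for Itgal and Itgb7 (background 11.6%) and below for Itgam (17.9%). LSK cells were above for Itgb1, Itga6 and Itga2b (19.1%) and below for Itgam, Itgb2, Itgal and Itgb7 (13.2%). Itga2b, with 54 of its 64 UMIs in LSK cells, and Itga6, with 106 of 132, reached 50 UMIs only through these cells. Their calls, in LSK cells and in the other populations, therefore rest in part on that filter. Erythroblasts were above for 0 members (13.3%) and below for 6 (43.4%), and B lymphocytes above for 0 (7.28%) and below for 5 (15.1%). With scran size factors and with TMM factors, granulocytes were also above for Itgal and no longer below for Itga4, erythroblasts were above for Itga4 and Itgb1, and LSK cells were no longer above for Itgb1. The background above was then 17.9% and 17.4% in granulocytes, 26.3% and 23.6% in erythroblasts and 9.25% and 8.74% in LSK cells. With both scalings B lymphocytes were also below for Itgb2 and erythroblasts no longer below for Itga2b, and with scran size factors alone LSK cells were no longer below for Itgb7 and T lymphocytes were below for Itga2b. Sums under 3 UMIs were set to 3 for the other scalings but not for scran size factors. Itga2b had 1 UMI in T lymphocytes. Calls and background shares with scran size factors thus differ from the rest in floor as well as in scaling. Per ERCC UMI, granulocytes were also below for Itgb1 (background 58.8%) and T lymphocytes for Itga2b (29.0%), B lymphocytes were below for all 8 (57.0%), and LSK cells were above for the same 3 members (54.3%) and below for Itgam and Itgb2 alone (8.56%). Without the 13 wells with monocyte-marker transcripts and wells A8 and B2, granulocytes were below for 5 members, with Itgb1 and Itgb7 added (background 53.4%), and above for Itgam and Itgb2 as before. B lymphocytes were then below for 6, with Itgb2 added (14.4%), and LSK cells were no longer below for Itgb7 (13.3%). Itgb3 and Itgae, with 21 and 27 UMIs in all, were not counted. The median log2 ratio of the 8 members was -2.99 in erythroblasts, against -0.70 over all genes, and -0.49 in LSK cells, against 0.30.

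**Figure D1:**
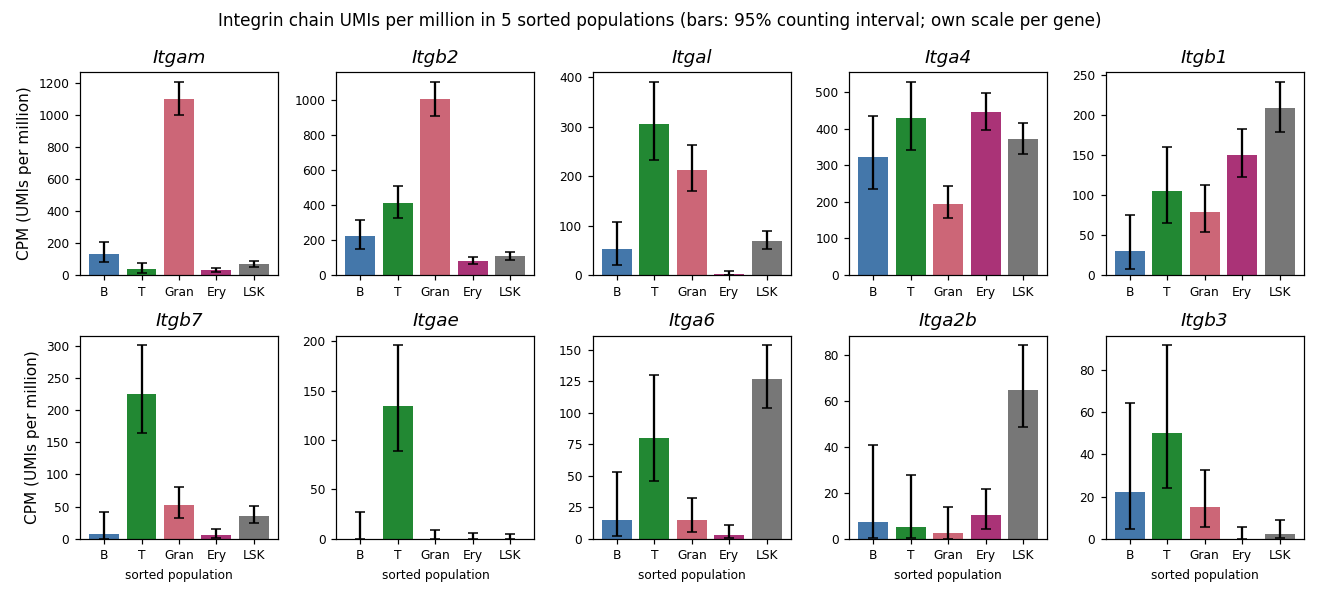
CPM (y axis, a scale of its own for each gene) of the 10 integrin chains in B and T lymphocytes, granulocytes, erythroblasts and LSK cells (x axis). Bars are sums over wells, and error bars are 95% exact Poisson intervals. Itgam stands at 1103 CPM in granulocytes and at 133 or less elsewhere, whereas Itga4 lies between 196 and 445 in all 5.

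Among the chains of the beta2 family, Itgam, the alpha chain of Mac-1 (GRCm38 chromosome 7, 128062640 to 128118491, plus strand), was highest in granulocytes. Itgam reached 1103 CPM (1003 to 1210) in granulocytes, 133 (78.6 to 209) in B lymphocytes, 68.3 (51.7 to 88.5) in LSK cells, 34.9 (14.0 to 72.0) in T lymphocytes and 28.5 (17.2 to 44.5) in erythroblasts. The granulocyte level was 8.32-fold (5.20 to 14.2) that of B lymphocytes, the next in order, and T lymphocytes and erythroblasts did not differ beyond counting error (1.23-fold, 0.435 to 3.05). Well A8 held 8 of the 18 Itgam UMIs of the B lymphocytes. Without A8 and B2 the B lymphocytes had 70.0 CPM (32.0 to 133), close to LSK cells. Exons of Itgam overlap those of Gm49368 on the same strand, which held 1 UMI in all, and the Itgam counts are uncertain where the 2 share reads.

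An Itgam UMI was found in 85 of 96 granulocyte wells (88.5%, exact binomial interval 80.4 to 94.1) at a median depth of 3880 UMIs. Erythroblasts, as red cell precursors a lineage without Mac-1, had one in 18 of 96 wells (18.8%) at a median depth of 6113.5, and LSK cells in 39 of 95 (41.1%) at 7959. After thinning each well to 1000 UMIs the shares were 66.0%, 4.21% and 8.42%. Transcripts of granulocytes were at a low level in every population. The 8 granulocyte markers (the genes of granule and calcium-binding proteins Mmp8, Ngp, Camp, Retnlg, Ltf, Lcn2, S100a9, S100a8) were in T lymphocytes, erythroblasts and LSK cells at 2.41%, 1.13% and 1.51% of their granulocyte level, and Itgam at 3.17%, 2.58% and 6.19% of its own. Per 1000 UMIs on these markers, Itgam had 7.27 UMIs (6.61 to 7.98) in granulocytes, 9.58 (3.84 to 19.8) in T lymphocytes, 16.6 (9.94 to 26.0) in erythroblasts and 29.8 (22.5 to 38.8) in LSK cells. In T lymphocytes that proportion did not differ from the granulocytes beyond counting error. In erythroblasts, in LSK cells and in B lymphocytes without wells A8 and B2 (23.7, 10.7 to 45.4) it lay above that of granulocytes.

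Itgb2, the shared beta chain (chromosome 10, 77530252 to 77565708, plus strand), was at 1004 CPM (908 to 1106) in granulocytes, 409 (325 to 508) in T lymphocytes, 221 (149 to 315) in B lymphocytes, 108 (86.7 to 133) in LSK cells and 81.0 (60.8 to 106) in erythroblasts. Granulocytes stood 2.45-fold (1.93 to 3.15) above T lymphocytes, with log2 ratios of 2.26 and 2.04 with scran size factors and TMM factors in place of 1.29. T lymphocytes stood 1.85-fold (1.21 to 2.92) above B lymphocytes, while LSK cells and erythroblasts did not differ beyond counting error (1.33-fold, 0.940 to 1.90). A UMI was found in 90 of 96 granulocyte and 32 of 43 T lymphocyte wells.

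Itgal, the alpha chain of LFA-1 (chromosome 7, 127296260 to 127335138, plus strand), was highest in the lymphocytes of the thymus on the CPM scale. It had 304 CPM (233 to 391) in T lymphocytes, 213 (170 to 263) in granulocytes, 68.3 (51.7 to 88.5) in LSK cells, 51.5 (20.7 to 106) in B lymphocytes and 1.50 (0.0380 to 8.36) in erythroblasts, where the value was 1 UMI in 666728. The T lymphocytes stood 1.43-fold (1.01 to 2.01) above granulocytes, and this order turned under scran size factors and TMM factors, where granulocytes were the higher. LSK cells and B lymphocytes did not differ beyond counting error (1.32-fold, 0.603 to 3.44).

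The proportion of either alpha chain to Itgb2 differed between populations. For each Itgb2 UMI there were 1.10 Itgam UMIs (0.957 to 1.26) and 0.212 Itgal UMIs (0.166 to 0.269) in granulocytes, 0.0854 and 0.744 in T lymphocytes, and 0.633 of each in LSK cells. Such a ratio is read here only between populations, since counts of 2 genes need not be captured alike. Itgam and Itgb2 were found together in 82 of 96 granulocyte wells, and Itgal and Itgb2 in 52 of these and in 22 of 43 T lymphocyte wells. In erythroblasts both were found together in 9 wells for Itgam and 1 for Itgal.

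Mac-1, the protein made of Itgam and Itgb2, was also measured by antibody in the index sort. The median fluorescence was 1173 in granulocytes (577 to 7155), 120 in LSK cells (14 to 284), 16.5 in erythroblasts, 16 in B lymphocytes and 11 in T lymphocytes, in arbitrary units. As Mac-1 was part of the granulocyte gate, its height there is no finding. Every LSK well lay below the lowest granulocyte well, and of the other wells only A8 did not. LSK cells stood above erythroblasts in both measures, with Itgam at 68.3 and 28.5 CPM, and closer together, at 53.5 and 40.6, with TMM factors. B lymphocytes without A8 and B2 had 70.0 CPM of Itgam (32.0 to 133, 9 UMIs), near LSK cells, but a median fluorescence of 15.5, below the 120 of LSK cells. Their fluorescence quartiles (7.25 to 24.5) overlapped those of erythroblasts (6 to 33.75), so that these 2 populations have no clear order by fluorescence.

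**Figure D2:**
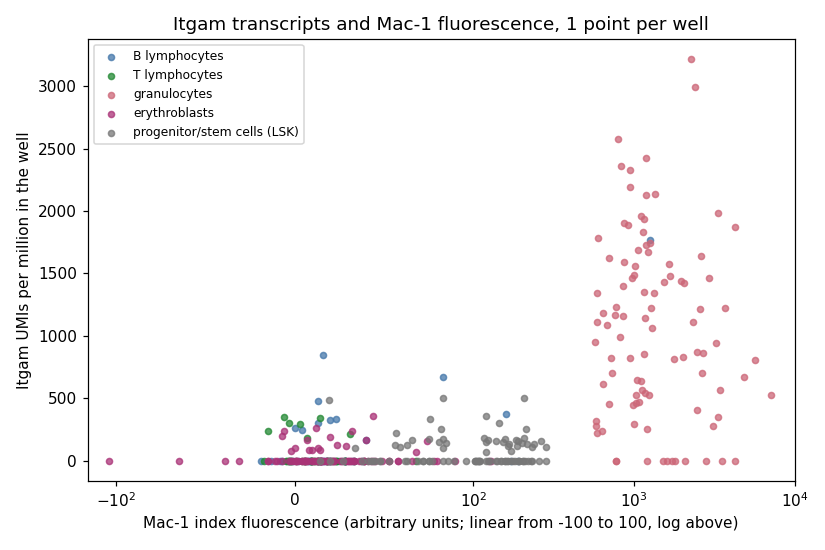
Itgam CPM in each well (y axis) against Mac-1 index fluorescence in arbitrary units (x axis, linear near 0 and logarithmic above), 1 point per well, coloured by population. Granulocyte wells lie between 577 and 7155, Pearson's r within them is -0.12, and the B lymphocyte point among them is well A8 at 1268.

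Within the granulocyte gate, the ratio of Itgam transcripts between wells above and below the median fluorescence depended on whether depth was divided out. Over the 96 wells Pearson's r of Itgam CPM with Mac-1 fluorescence was -0.12 and Spearman's rho was -0.07, given as a description of cells that share a library. The 48 wells above the median fluorescence, with a median of 2067.5, had 1121 CPM (985 to 1270), and the 48 at or below it, with a median of 860, had 1082 (937 to 1243). The ratio was 1.04-fold (0.856 to 1.25), and 20 wells lay within 10% of the median. With UMIs per well in place of CPM, the log2 ratio was 0.29 (0.02 to 0.57) in place of 0.05 (-0.22 to 0.33), and the median depth of these wells was 4184 and 3552 UMIs. An Itgam UMI was found in 39 of the 48 wells above the median and in 46 of the 48 at or below it. Without the 13 wells with monocyte-marker transcripts the CPM ratio was 1.04-fold (0.850 to 1.28). Itgb2 gave 983 and 1028 CPM above and below the median (0.957-fold, 0.783 to 1.17).

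The 13 wells with monocyte-marker transcripts differed from the other 83 of the granulocyte gate beyond counting error in 5 of the 6 members with at least 20 UMIs, as did 42.3% of the 2832 genes at that depth. Of these members, Itgb7 held 1 UMI and Itgb1 18 in the 83 wells. Both reached 20 UMIs only with the 13 wells, where they were higher, so that their place in this count depends on the filter. This split was made after the values were seen. Their Gr1 fluorescence had a median of 1170, against 20943, and their Mac-1 fluorescence a median of 1157, against 1177. Granulocyte markers made up a median of 0.244% of their UMIs, against 17.8%. Their depth had a median of 5746 UMIs, against 3526.

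Itgam had 533 CPM (395 to 705) in the 13 wells and 1271 (1149 to 1402) in the other 83, a ratio of 0.420-fold (0.305 to 0.566). Itgb2 had 577 and 1129 CPM (0.511-fold, 0.375 to 0.683), and was found in all 13 wells. Itgal had 207 and 215 CPM (0.962-fold, 0.546 to 1.62), so that LFA-1's alpha chain did not differ between these wells beyond counting error. Itga4 went the other way, with 446 CPM (320 to 605) in the 13 wells and 122 in the 83 (3.66-fold, 2.30 to 5.85), as did Itgb1 with 152 and 57.8 CPM (2.64-fold, 1.21 to 5.62). Itgb7 showed the sharpest split, with 20 UMIs in the 13 wells and 1 in the other 83 (218 and 3.21 CPM, 67.9-fold, 10.9 to 2812). The Itgb7 UMIs of the gate thus lay nearly all in wells with monocyte-marker transcripts, as did those of fibronectin (Fn1), a ligand of Itga4 with Itgb1, at 302 and 4 UMIs.

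Itgb2l, a paralogue of Itgb2 that is no member, held 189 of its 195 UMIs in granulocytes (468 CPM), with 184 of them in the 83 wells and 5 in the 13 (590 and 54.4 CPM, 0.0922-fold, 0.0296 to 0.219). All 5 of these UMIs were in well I13. Itgb2l and Itgb2 are similar in sequence, and reads that fit both may be uncertain. Well I13 was the deepest of the granulocyte gate, with 22425 UMIs, 93 of them on the monocyte genes and 7.30% on granulocyte markers. Without I13 the 12 wells left had Itgam at 490 CPM, Itga4 at 461, Itgb7 at 288 and Itgb2l at 0 UMIs.

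**Figure D3:**
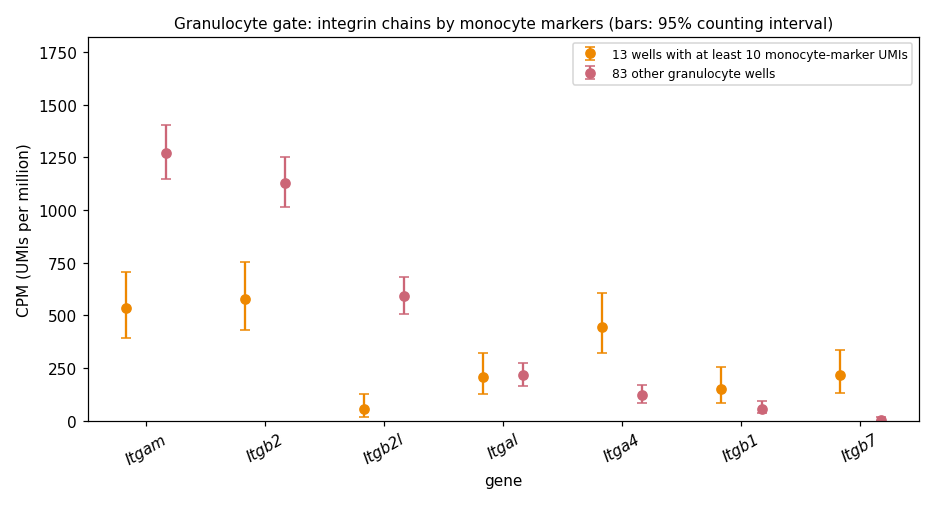
CPM (y axis) of 7 integrin chains (x axis) in the 13 granulocyte-gate wells with at least 10 UMIs on Ccr2, F13a1, Ms4a6c and Csf1r and in the other 83. Points are sums over wells and bars are 95% exact Poisson intervals. Itgam, Itgb2 and Itgb2l are lower in the 13 wells, Itga4, Itgb1 and Itgb7 are higher, and Itgal is at 207 and 215.

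Itga4, the alpha chain of VLA-4 (chromosome 2, 79255426 to 79333123, plus strand), had a narrow range of levels on the CPM scale in the populations other than granulocytes, whereas with scran size factors and TMM factors erythroblasts stood above T lymphocytes by log2 ratios of 1.21 and 0.89. Itga4 had 445 CPM (396 to 499) in erythroblasts, 429 (343 to 530) in T lymphocytes, 371 (331 to 415) in LSK cells, 324 (235 to 435) in B lymphocytes and 196 (155 to 244) in granulocytes. None of the first 4 differed from its neighbour in this order beyond counting error, though erythroblasts were 1.20-fold (1.02 to 1.41) above LSK cells. B lymphocytes were 1.65-fold (1.12 to 2.42) above granulocytes, and 1.04-fold with TMM factors and 1.15-fold with scran size factors. In the 83 granulocyte wells without monocyte-marker transcripts the level was 122 CPM. A UMI was found in 83 of 96 erythroblast and 82 of 95 LSK wells. Exons of Itga4 overlap those of Cerkl on the opposite strand, and whether strand was used in counting is not given in the sources used here, so that its counts are uncertain in that respect.

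Among erythroblasts, Itga4 went with CD44, whose surface level falls as these cells mature. The 48 wells above the median CD44 fluorescence had 521 CPM and the 48 at or below it 328, a ratio of 1.59-fold (1.23 to 2.06). Itgb1 had 156 and 141 CPM in these wells (1.10-fold, 0.723 to 1.70), and did not differ beyond counting error, nor did Itgb2 (0.809-fold, 0.457 to 1.45). By Gr1 in granulocytes, Itgb2 (1.42-fold, 1.16 to 1.73) and Itgal (1.67-fold, 1.07 to 2.62) were higher above the median. The 13 wells with monocyte-marker transcripts lay below it. By CD3 in T lymphocytes, Itga4 was lower above the median (0.631-fold, 0.392 to 0.997). With all wells used, other members tried were within counting error, and no shares of all genes were computed for these splits.

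Itgb1, the most widely shared beta chain (chromosome 8, 128685654 to 128733200, plus strand), was highest in LSK cells on the CPM scale. It had 208 CPM (179 to 242) in LSK cells, 150 (122 to 182) in erythroblasts, 105 (64.9 to 160) in T lymphocytes, 79.3 (54.2 to 112) in granulocytes and 29.5 (8.03 to 75.4) in B lymphocytes. LSK cells were 1.39-fold (1.08 to 1.80) above erythroblasts by CPM, and below them under scran size factors and TMM factors. The remaining neighbours did not differ beyond counting error. Both chains of VLA-4 were found in 57 of 95 LSK wells and 50 of 96 erythroblast wells. The B lymphocytes, with 44 UMIs on Itga4, had 4 on Itgb1.

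Itgb7 (chromosome 15, 102215995 to 102231944, minus strand) was highest in the thymic T lymphocytes, at 225 CPM (164 to 300). Granulocytes had 52.0 (32.2 to 79.6), LSK cells 35.9 (24.2 to 51.3), B lymphocytes 7.36 (0.186 to 41.0) and erythroblasts 6.00 (1.63 to 15.4). The T lymphocytes stood 4.31-fold (2.52 to 7.63) above granulocytes, and by a log2 ratio of 6.13 above the 83 granulocyte wells without monocyte-marker transcripts. Of the 16 T lymphocyte wells with an Itgb7 UMI, 14 also held Itga4.

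Itgae (chromosome 11, 73090583 to 73147446, plus strand) was found in T lymphocytes only. Its 27 UMIs gave 135 CPM (88.8 to 196) there, from 10 of 43 wells with 1 to 6 UMIs each. In the other 4 populations it had 0 UMIs in 2040854, so that, against a floor of 3 UMIs over these populations together, the T lymphocyte level was at least 91.7-fold higher. That fold takes the 27 UMIs as they stand and leaves out their counting error. Against the B lymphocytes alone the T lymphocyte level was, on the same terms, at least 6.10-fold higher than that floor, and the exact interval of the ratio begins at 4.63-fold. The 0 of 44 B lymphocyte wells allows a share of wells with a UMI of up to 6.82% by a limit of 3 counts and of up to 8.04% by the exact binomial interval.

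Within the T lymphocytes, Itgae and Itgb7 went with the transcripts of the CD8 co-receptor. This split was also made after the values were seen. There were 14 wells with 5 to 28 UMIs on Cd8a and Cd8b1 and 29 with 0 to 2. The former held 3 Cd4 UMIs and the latter 50, at median depths of 5389 and 4232 UMIs. Markers of innate lymphocytes (Nkg7, Klrd1, Prf1, Eomes and Klrb1c, the last at 0) held 31 UMIs in 12 T lymphocyte wells, and their part in these values was not tested.

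Itgb7 had 478 CPM (336 to 658) in the wells with Cd8 transcripts and 65.1 in the others (37 and 8 UMIs, 7.34-fold, 3.36 to 18.2). Itgae had 271 and 48.8 CPM (21 and 6 UMIs, 5.56-fold, 2.17 to 16.8), and the 6 UMIs of the second group all came from well P7, which had 0 Cd8 UMIs. Itgal went the other way with 181 and 382 CPM (0.473-fold, 0.240 to 0.874), as did Itgb2 with 271 and 496 (0.546-fold, 0.316 to 0.910). The chains of LFA-1 were therefore lower, and those of the E-cadherin receptor higher, in the wells with Cd8 transcripts. The share of all genes that differed between these wells was not computed, so that this cannot be called particular to integrins. Itga4 had 400 and 447 CPM (0.895-fold, 0.557 to 1.41) and did not differ beyond counting error. Itgae and Itgb7 were found together in 5 of the 10 wells with Itgae.

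The study compared T with B lymphocytes, and 1103 genes held at least 50 UMIs in these populations together. Of these, 18.2% were at least 2-fold higher and 9.34% at least 2-fold lower in T lymphocytes. Of the members, 3 reached that depth, and of these only Itgal was at least 2-fold higher. Itgal was 5.91-fold (2.70 to 15.3) higher, Itgb2 1.85-fold (1.21 to 2.92) and Itga4 1.32-fold (0.911 to 1.95), the last within counting error. Below that depth Itgb7 had 45 UMIs in T and 1 in B lymphocytes, and the latter came from well B2, whose CD3 fluorescence goes against its label.

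Itga6, the laminin-binding alpha chain that marks many stem cells (chromosome 2, 71745616 to 71858416, plus strand), was highest in LSK cells. It had 127 CPM (104 to 154) there, 79.8 (45.6 to 130) in T lymphocytes, 14.9 (5.46 to 32.4) in granulocytes, 14.7 (1.78 to 53.2) in B lymphocytes and 3.00 (0.363 to 10.8) in erythroblasts. LSK cells and T lymphocytes did not differ beyond counting error (1.59-fold, 0.935 to 2.88), and T lymphocytes were 5.37-fold (2.00 to 16.8) above granulocytes, and 8.29-fold (2.37 to 44.4) above the 83 wells without monocyte-marker transcripts, which had 9.63 CPM. Itga6 and Itgb1 were found together in 39 LSK wells. In erythroblasts Itga6 was 0.0236-fold (0.00282 to 0.0875) its LSK level, against 1.20-fold (1.02 to 1.41) for Itga4 and 0.720-fold (0.557 to 0.926) for Itgb1. With TMM factors these were 0.0429-fold, 2.18-fold and 1.31-fold, and with scran size factors 0.0283-fold, 2.62-fold and 1.64-fold.

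Itga2b, CD41, the platelet alpha chain that early blood progenitors also carry (chromosome 11, 102453297 to 102470122, minus strand), was highest in LSK cells as well. It had 64.7 CPM (48.6 to 84.4) there and 10.5 (4.22 to 21.6) in erythroblasts, a ratio of 6.16-fold (2.79 to 16.0). Its log2 ratio was 2.62 on this scale and 0.77 with scran size factors. B lymphocytes, T lymphocytes and granulocytes had 1 UMI each (7.36, 4.99 and 2.48 CPM). The 54 UMIs in LSK cells lay in 31 of 95 wells. Its platelet partner Itgb3 (chromosome 11, 104608000 to 104670476, plus strand) was low in every population. Itgb3 had 49.9 CPM (10 UMIs) in T lymphocytes, 22.1 (3) in B lymphocytes, 14.9 (6) in granulocytes, 2.40 (2) in LSK cells and 0 in erythroblasts, and at this depth only granulocytes and LSK cells differed as neighbours beyond counting error (6.21-fold, 1.11 to 62.9). The 6 granulocyte UMIs of Itgb3 were all in the 83 wells (19.3 CPM). Itga2b and Itgb3 were found together in 1 LSK well.

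Within the LSK cells, Itga2b was high in wells with few transcripts of Flt3, the cytokine receptor of lymphoid-primed progenitors, a split made after the values were seen. The 45 wells with 3 to 18 Flt3 UMIs had 16.2 CPM (7 UMIs) and the 50 wells with 0 to 2 had 117 CPM (47 UMIs), a ratio of 0.138-fold (0.0528 to 0.308). Gata2, a factor of stem cells and of megakaryocyte and mast cell progenitors, had 28 and 90 UMIs (0.289-fold, 0.182 to 0.446). Hlf, a factor of stem cells, had 330 and 298 (1.03-fold, 0.878 to 1.21) and did not differ beyond counting error. The other members differed less, with Itga6 at 113 and 142 CPM (0.799-fold, 0.534 to 1.19), Itgb1 at 178 and 241 (0.738-fold, 0.540 to 1.01) and Itgb7 at 48.5 and 22.4 (2.17-fold, 0.953 to 5.38), each within counting error. For this split by Flt3, too, the share of all genes that differed was not computed.

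By fluorescence, the LSK wells above the median of c-Kit had Itga2b at 98.8 CPM and those at or below it at 31.0 (3.19-fold, 1.68 to 6.50). Itga6 was also higher there, at 154 and 100.0 CPM (1.54-fold, 1.03 to 2.33), and Itgb2 lower, at 77.1 and 138 (0.559-fold, 0.351 to 0.875). Of the 7 members tried, these 3 differed beyond counting error, as did 13.5% of the 3281 genes with at least 50 UMIs. By Sca-1 only Itga4 of the 7 differed (11.7% of these genes), with 320 CPM above the median and 417 at or below it (0.766-fold, 0.606 to 0.967). On 8 platelet genes (Pf4, Ppbp, Gp1ba, Gp1bb, Gp5, Gp9, Treml1 and Clec1b, the last at 0), the 31 LSK wells with an Itga2b UMI held 26 UMIs and the 64 wells without held 12. Their part in the Itga2b level was not tested.

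**Figure D4:**
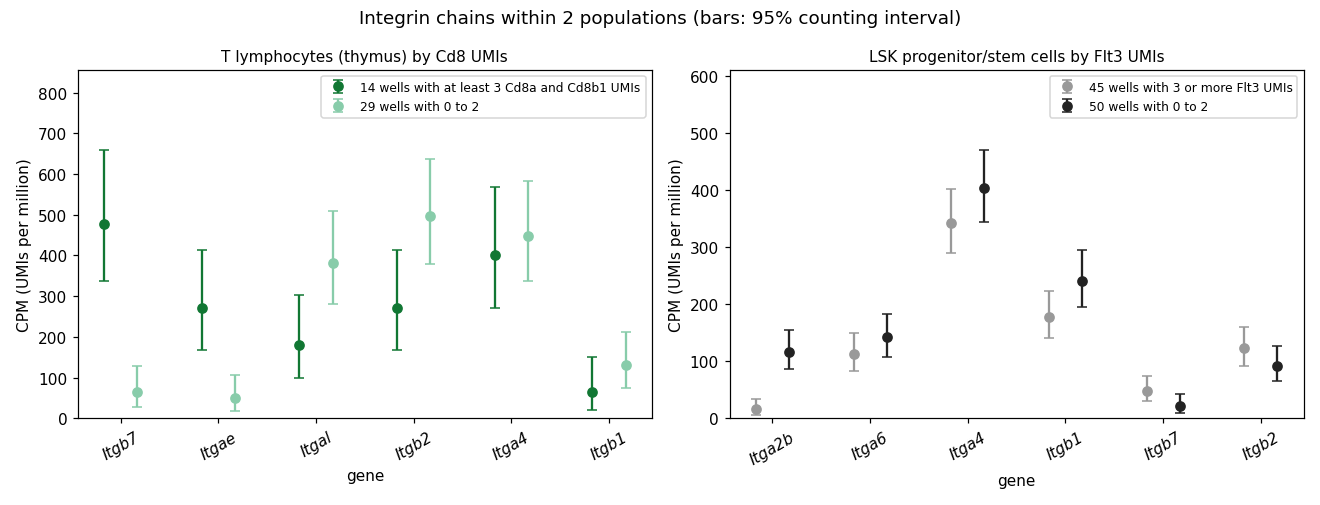
CPM (y axis) of 6 integrin chains (x axis) within T lymphocytes, split by Cd8a and Cd8b1 UMIs (left), and within LSK cells, split by Flt3 UMIs (right). Points are sums over wells and bars are 95% exact Poisson intervals. Itgb7 and Itgae are higher in the 14 T lymphocyte wells with Cd8 transcripts, and Itga2b is at 117 CPM in the 50 LSK wells with few Flt3 UMIs against 16.2 in the other 45.

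Of the other integrin chains, 11 were in the table and 4 reached 20 UMIs. Beside Itgb2l, these were Itga9 with 17 of 20 UMIs in LSK cells, Itgb5 with 23 of 29 in LSK cells, and Itgav with 18 UMIs in LSK cells and 9 each in granulocytes and T lymphocytes. Of the proteins that switch integrins on or tie them to the cytoskeleton, 19 of the 26 listed reached 50 UMIs. In granulocytes 6 of them were at least 2-fold above the mean of the other 4 populations and 2 below (10.8% and 43.7% of all genes), with a median log2 ratio of 0.38 against -0.82 over all genes. Without the 13 wells these were 6 and 3 (10.7% and 53.2% of all genes). In T lymphocytes 5 were above and 3 below (11.6% and 17.9%), in LSK cells 1 and 4 (19.1% and 13.2%) and in B lymphocytes 1 and 5 (7.28% and 15.1%). In erythroblasts 1 was above and 12 below (13.3% and 43.4%), with a median of -2.24 against -0.70.

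Vcl (vinculin) and Pxn (paxillin), which link integrins to actin, had log2 ratios of 2.71 and 2.42 in granulocytes, and 2.78 and 2.64 without the 13 wells. Skap1 and Fyb, adaptors of the T cell pathway to LFA-1, had 5.64 and 2.01 in T lymphocytes. Skap2, a relative of Skap1, had -3.50 in T lymphocytes and 1.99 in granulocytes, 2.06 without the 13 wells. Of 4 integrin inhibitors counted, Flna (filamin A) had 2.33 in granulocytes, 2.35 without the 13 wells, and -4.68 in erythroblasts. In erythroblasts 3 of the 4 were at least 2-fold below, as were 43.4% of all genes. Of 21 ligands, 4 reached 50 UMIs. Thbs1 (thrombospondin) was above in granulocytes at 1.76, and 2.14 without the 13 wells with monocyte-marker transcripts. Fn1 was above at 5.44 with these wells and at -0.45 without them, with 4 of 306 UMIs left, and Icam4, a red cell adhesion molecule, was above in erythroblasts at 3.78.

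For each member with at least 100 UMIs, the genes with the most similar profile were found by the distance between centred log2(CPM + 10) profiles over the 5 populations. For Itgam they were Trem3, Clec4a2 and S100a6 (distances 0.50, 0.63 and 0.70), for Itgb2 Tmem154, Sema4a and Arrb2 (0.55, 0.73 and 0.82), and for Itgal Arhgap9, Selplg and Dennd1c (0.38, 0.45 and 0.59). For Itga4 they were Hbs1l, Atp5a1 and Atp5g3 (0.09, 0.20 and 0.24), genes of translation and of mitochondrial ATP synthesis that most cells use. For Itgb1 they were Eci2, Rps12-ps3 and Ddrgk1 (0.44, 0.55 and 0.56), for Itgb7 Otulinl, Slfn5 and Ifit1 (0.36, 0.61 and 0.91), and for Itga6 Igfbp4, Mfng and Npepl1 (0.35, 0.54 and 0.75).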

How the data were processed

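UMI counts of 374 wells (44 B lymphocytes, 43 T lymphocytes, 96 granulocytes, 96 erythroblasts, 95 LSK cells) were used as deposited: the authors aligned CEL-seq2 reads, assigned them to exons and collapsed them with scPipe to whole UMI counts for every gene in each well, without normalization. For the aligner version, the build, the annotation and strandedness, nothing is given in the sources used here. There were 9 further columns that match no sample, and these were not used. Symbols and coordinates came from GENCODE M21 on GRCm38, and the authors may have used another build. In all, 74 gene IDs had no symbol.

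Counts were summed per population and divided by the UMIs on mouse genes (CPM). For fold calls, sums under 3 UMIs were set to 3 and genes with at least 50 UMIs were used. Calls with scran size factors were made on means over wells, without that floor of 3 UMIs. Intervals are 95% and were tested on counts simulated with Poisson error alone, which does not test them against variation between wells. The median well held 3028.5 to 7959 UMIs, so that members under 50 UMIs have wide intervals. Alternatives used scran 1.30.0 size factors, edgeR 4.0.16 TMM factors and ERCC UMIs. All 10 members are named. Of the listed pathway genes, those with the 2 highest or 2 lowest ratios in granulocytes, T lymphocytes or LSK cells could be named, others being chosen after their values were seen, and other chains from 20 UMIs. Members and lists were chosen with earlier results of these data known. Analyses used Python 3.11.15, numpy 2.4.6, pandas 2.3.3, scipy 1.17.1 and R 4.3.3. Some results are not reported here.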

Additional observations from a re-analysis of the deposited data

How the results depend on the processing

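No paired analysis was possible because each population is 1 sample and the replicate numbers only name wells. TMM factors ran from 0.703 in erythroblasts and 0.748 in granulocytes to 1.19 in B lymphocytes, 1.26 in T lymphocytes and 1.28 in LSK cells, so that levels across populations depend on the scaling. The median log2 ratio of all genes was -0.82 in granulocytes and 0.30 in LSK cells by CPM, and -0.29 and -0.13 with TMM factors. Of genes past 2-fold in LSK cells, 59.2% were higher by CPM, 29.7% with TMM factors and 86.4% per ERCC UMI. For granulocytes these were 19.9%, 38.7% and 11.7%, for erythroblasts 23.5%, 42.6% and 37.8%, for T lymphocytes 39.3%, 17.7% and 16.4%, and for B lymphocytes 32.5%, 15.9% and 3.30%. With scran size factors and with TMM factors Itga4 and Itgb1 were above 2-fold in erythroblasts, Itgal was in granulocytes, and Itgb1 no longer was in LSK cells.

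On the log2 scale, Itgal in T lymphocytes over granulocytes was 0.51, and -0.092 with scran size factors and -0.23 with TMM factors. Itgb1 in LSK cells over erythroblasts was 0.47, and -0.71 with scran, -0.39 with TMM and 0.11 with the total taken without the most abundant genes. Itgb2 in granulocytes over T lymphocytes was 1.29, and 2.26 with scran and 2.04 with TMM. Itga4 in erythroblasts over T lymphocytes was 0.05, and 1.21 with scran, 0.89 with TMM and 0.83 per ERCC UMI. Itga6 in LSK cells over T lymphocytes was 0.67, and 1.56 per ERCC UMI. Itga2b in LSK cells over erythroblasts was 2.62, and 0.77 with scran. Itgam in granulocytes over B lymphocytes was 3.06, and 3.98 without wells A8 and B2. Itgb7 in T lymphocytes over granulocytes was 2.11, and 6.13 without the 13 wells, an alternative chosen after seeing the data. Leaving out 1 plate row at a time gave -0.068 to 0.21 for Itga4 in erythroblasts over T lymphocytes, and 1.61 to 4.43 for Itgb7, the highest without row J, which held 18 of the 21 granulocyte UMIs. For Itgam above and below the median Mac-1 fluorescence (0.05) it gave -0.10 to 0.12. That ratio was -0.085 between the wells of highest and of lowest fluorescence, leaving out the middle of the range, and with UMI counts in place of CPM the Spearman and Pearson values were 0.077 and 0.050. Summed over the populations, calls above 2-fold among members were 7, and 4 with at least 200 UMIs, and calls below were 19, and 11 with at least 200 UMIs and 8 at 4-fold. The shares of all genes are given above by population for 2-fold and 50 UMIs. They were not computed for the other settings, so that these counts have no background beside them. Thinning wells to 1000 UMIs moved 39 of 50 shares of wells beyond their intervals, and to 2000 UMIs 27. Levels with scran size factors or per ERCC UMI are in another unit and were not set beside CPM, and the Itgae ratio, which rests on a floor of 3 UMIs in B lymphocytes, was not computed for scran size factors and the mean over wells, where no such floor applies. The causes were not tested.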
